A study of Mus musculus with 6 samples.

Results

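Goblet cells make the mucus of the intestine, and 10 genes of their mucus and secretion machinery were followed here through single-nucleus RNA counts of mouse intestinal organoids. The genes were Muc2, Tff3, Spink4, Fcgbp, Clca1, Spdef, Ern2, Ano7, Agr2 and Sytl2. They were taken as a named list, by their Ensembl identifiers, and all 10 were found among the 31319 genes of the deposited matrices. Organoids are epithelial cultures grown from intestinal crypts, here from the jejunum of C57BL/6 mice aged 8 to 12 weeks. In one group (QCM, 3 samples) they were kept in medium conditioned by quiescent mouse embryonic fibroblasts, which per the methods were starved of serum. In the other group (SCM, 3 samples) the medium came from senescent fibroblasts, which per the methods had been irradiated or treated with doxorubicin. The comparison asked how the products that senescent cells release act on the epithelium. No genetic change was named for either group, and neither group held the vessels, nerves or immune cells of the living gut.

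A goblet cell fills its upper part with granules of mucin, a heavily glycosylated protein that swells into a gel when it is released. The mucin is folded and linked into chains in the endoplasmic reticulum (ER), coated with sugars in the Golgi, packed with trefoil factors and other small proteins, and discharged at the apical surface. Goblet and Paneth cells descend from the same secretory progenitors, so that some of these genes are used by both.

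The samples differed widely in yield. They held 430 to 10833 nuclei and 4071926 to 41035733 unique molecular identifiers (UMIs, each 1 counted RNA molecule), with the fewest of both in SCM replicate 1. Median depth was 8260 UMIs per nucleus in QCM replicate 1 and between 1578 and 3156.5 in the other samples. In SCM replicate 1, 175 of 430 cell barcodes were also found in QCM replicate 1, against 0 to 36 shared barcodes in the other 14 pairs of samples. The shared nuclei of SCM replicate 1 carried 703 CPM of the 10 genes together (CPM, UMIs of a gene per 1000000 UMIs of all genes), and its other 255 nuclei 450 CPM. Ribosomal protein genes made up 14.9, 5.21 and 10.9% of the counts in QCM replicates 1, 2 and 3, and 4.33, 2.72 and 7.67% in SCM replicates 1, 2 and 3. Differences between the media in Tff3, Spink4, Agr2, Muc2 and Fcgbp are therefore given with and without the replicates numbered 1.

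The study named its clusters, but the table of nuclei used here gives them as numbers, 0 to 14. Cluster 6 held 1755 of 38154 nuclei (4.6%) and 5.92% of the UMIs. Of 9 goblet markers, 8 were at least 2-fold higher in cluster 6 than in the other nuclei and at 5 CPM or more. The same held for 3 of 10 Paneth markers and 0 of 10 enteroendocrine markers, and cluster 6 is called goblet-like here. The goblet marker that fell short was Tff3 (1.43-fold). Clca1 passed at 5.06 CPM on 41 UMIs, 33 of them from SCM replicate 2. Summed Paneth markers stood at 1759 CPM in cluster 6, 2238 CPM in cluster 1 and 868 CPM over all nuclei. The name therefore does not set goblet nuclei apart from Paneth nuclei. Since 7 of the 10 genes are among the goblet markers and the clusters were made from the same counts, levels in cluster 6 are a description and were not tested. Markers of fibroblasts summed to 1.28 to 5.37 CPM in the QCM samples and 1.47 to 2.84 CPM in the SCM samples, and immune markers to 1.11 to 3.76 and 0.98 to 3.22 CPM.

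The genes ranged from those with most of their counts in cluster 6 to those spread over all clusters. Cluster 6 held 67.1% of all Ano7 UMIs, 66.2% of Spdef, 57.4% of Ern2 and 53.9% of Sytl2. It held 38.0% of Muc2, 29.7% of Fcgbp, 17.9% of Agr2, 15.6% of Clca1, 13.5% of Spink4 and 8.28% of Tff3. These sums lean on QCM replicate 1, the deepest sample, where cluster 6 held less of each gene other than Spdef, Ern2, Sytl2 and Clca1 than in any other sample. Muc2 stood at 18.2% there and at 45.5 to 59.8% in the other 5 samples, Fcgbp at 13.1% and 34.5 to 45.1%, and Spink4 at 7.56% and 15.3 to 28.4%. Without QCM replicate 1 cluster 6 held 72.5% of Ano7, 72.4% of Spdef, 60.5% of Ern2, 55.6% of Sytl2, 53.6% of Muc2, 39.4% of Fcgbp, 25.6% of Agr2, 21.5% of Spink4, 17.1% of Clca1 and 11% of Tff3. With the samples summed, 8 of the 10 genes had their highest level in cluster 6, and the exceptions were Tff3, highest in cluster 1, and Clca1, highest in cluster 7. When CPM was averaged over samples, 9 of the 10 were highest in cluster 6. When each nucleus was given equal weight, all 10 were.

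**Figure D1:**
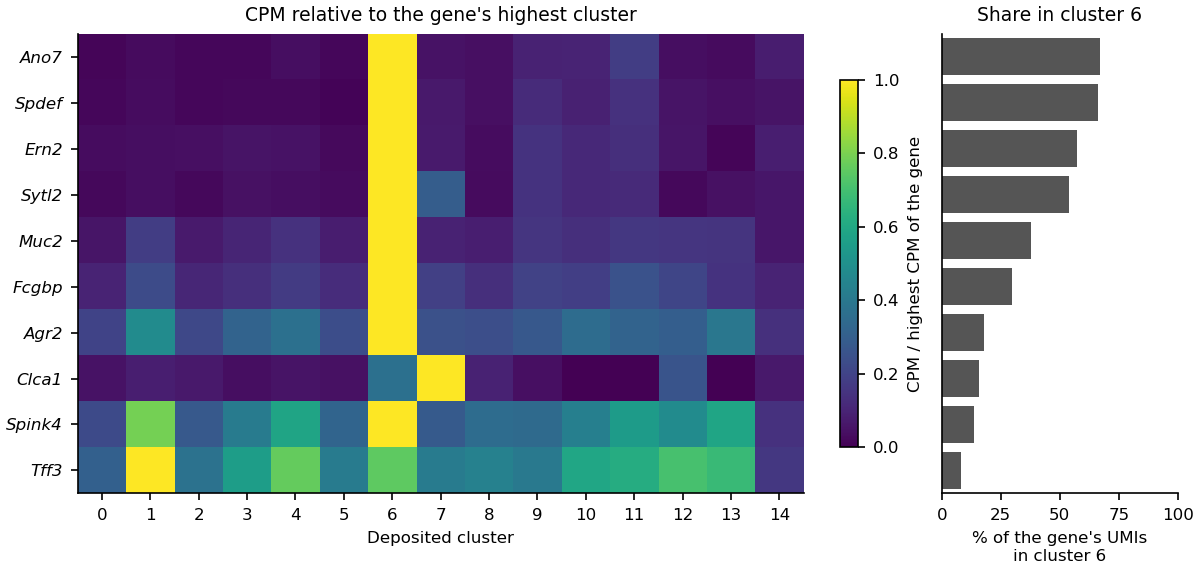
Level of each of the 10 genes (rows, ordered by the share of their UMIs in cluster 6) in each deposited cluster (columns), with the counts of the 6 samples summed, as a share of the gene's level in its highest cluster. Ano7, Spdef, Ern2 and Sytl2 are bright in cluster 6 and much darker elsewhere, while Tff3 and Spink4 are spread over all clusters. Sytl2 is next highest in cluster 7 (60.8 against 206 CPM).

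Promoter sequence is shown for the 2 genes most confined to the goblet-like cluster, Ano7 and Spdef, and for Muc2, which had the next largest share among the genes with an entry. These are the 250 bases before the transcription start in RefSeq (GRCm38.p6), a source that held a window for 5 of the 10 genes. Ano7 lies at chr1:93373646-93373895 on the plus strand, Spdef at chr17:27728952-27729201 on the minus strand and Muc2 at chr7:141690090-141690339 on the plus strand, each given 5′ to 3′ along its gene. Capitals mark a match to CAGNTG, the E-box bound by ATOH1 and other basic helix-loop-helix factors.
Ano7: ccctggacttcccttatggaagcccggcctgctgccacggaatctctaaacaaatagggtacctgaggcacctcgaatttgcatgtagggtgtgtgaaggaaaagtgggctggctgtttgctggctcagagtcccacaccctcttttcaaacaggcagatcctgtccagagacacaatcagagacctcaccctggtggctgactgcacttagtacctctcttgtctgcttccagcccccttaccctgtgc
Spdef: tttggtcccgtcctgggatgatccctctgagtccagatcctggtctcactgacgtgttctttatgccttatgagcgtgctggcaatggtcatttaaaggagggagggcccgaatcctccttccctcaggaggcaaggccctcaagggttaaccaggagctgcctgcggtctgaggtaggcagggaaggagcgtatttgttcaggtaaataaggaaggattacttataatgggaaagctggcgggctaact
Muc2: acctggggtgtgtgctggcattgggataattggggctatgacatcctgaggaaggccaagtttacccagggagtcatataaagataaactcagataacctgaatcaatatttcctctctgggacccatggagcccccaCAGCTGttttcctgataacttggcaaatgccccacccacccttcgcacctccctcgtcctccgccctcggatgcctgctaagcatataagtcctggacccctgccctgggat
Both strands were searched (a match that reads alike on both counts once) for CAGNTG, for CCGGAT (a core that SPDEF binds) and for TGTTTAC (FOXA factors), and no match overlapped another. Muc2 had 1 CAGNTG, 112 to 107 bases before the start. The Ano7 and Spdef windows held none of the 3 motifs. Of the other genes with a window, Fcgbp had 3 CAGNTG and Agr2 had no match. Of 32851 RefSeq windows of this length, 44.8% held CAGNTG, 4.94% CCGGAT and 3.17% TGTTTAC, so an E-box in such a window is common.

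Spdef (ENSMUSG00000024215, chr17:27714352-27728955, GRCm38) encodes an ETS transcription factor needed for goblet and Paneth cell maturation. Inside cluster 6 it stood at 50.4, 143 and 149.6 CPM in QCM replicates 1 to 3 and at 46.7, 114 and 158 CPM in SCM replicates 1 to 3. Outside cluster 6 it stood at 4.17, 2.78 and 2.27 CPM in QCM and 5.30, 5.61 and 2.27 CPM in SCM. Every sample was thus at least 8.81-fold higher inside the cluster, and both replicates numbered 1 were lowest inside it. The second-ranked cluster for Spdef was cluster 11, which carries tuft cell markers, at 15.7 CPM against 109.5 CPM in cluster 6, and the ranges of these clusters over samples overlapped.

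Ano7 (ENSMUSG00000034107, chr1:93373930-93404303), a member of the anoctamin family of membrane proteins, had a contrast like that of Spdef (32.4- and 31.1-fold with the samples summed). Its level inside cluster 6 was 169.9, 264 and 247 CPM in QCM and 277, 194 and 235 CPM in SCM, against 9.03, 5.13 and 4.91 CPM and 15.1, 7.12 and 4.30 CPM outside it. The fold between inside and outside ran from 18.3 to 54.7 over the 6 samples. Cluster 11 came second again, at 39.7 against 217 CPM, and here the ranges over samples did not overlap.

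Ern2 (ENSMUSG00000030866, chr7:122169893-122186207) encodes IRE1β, the ER stress sensor of mucus-secreting epithelia. It was at 80.0, 172 and 157 CPM inside cluster 6 in QCM and at 70.1, 162 and 219 CPM in SCM, and between 4.33 and 9.30 CPM outside it in all 6 samples. Sytl2 (ENSMUSG00000030616, chr7:90302252-90410719), a Rab27 effector that tethers secretory granules to the plasma membrane, was at 119.9, 287 and 216 CPM inside in QCM and at 197, 240.4 and 216 CPM in SCM. Its fold over the other nuclei ran from 8.35 in SCM replicate 2 to 37.4 in QCM replicate 2. Sytl2 differed from the other 3 genes of this kind in its second-ranked cluster, which was cluster 7 at 60.8 CPM. SCM replicate 2 gave 353 of the 521 Sytl2 UMIs there, at 103.7 CPM against 6.51 to 46.4 CPM in the other 5 samples. Cluster 6 stood apart from the second-ranked cluster for Ern2 (144 against 20.9 CPM) and for Sytl2 (206 CPM).

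Muc2 (ENSMUSG00000025515, chr7:141690340-141754693) encodes the gel-forming mucin itself. Inside cluster 6 it was at 222, 368 and 382 CPM in QCM replicates 1 to 3 and at 217, 293 and 392 CPM in SCM replicates 1 to 3. Outside it was at 62.1, 18.1 and 24.1 CPM in QCM and 13.0, 24.8 and 12.7 CPM in SCM, so that QCM replicate 1 was highest outside the cluster and close to lowest inside it. The fold ran from 3.58 in QCM replicate 1 to 30.9 in SCM replicate 3. In cluster 1, the second in order, Muc2 was at 56.2 CPM against 310.4 CPM in cluster 6, and these ranges did not overlap. QCM replicate 1 gave 1168 of the 1462 Muc2 UMIs of cluster 1. With CPM averaged over samples cluster 1 was only in place 8 (33.3 CPM) and cluster 9 was second (49.6 CPM). In the summed order, from the second place down to cluster 0 at 17.7 CPM, all 13 pairs of neighbours overlapped.

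Fcgbp (ENSMUSG00000047730, chr7:28071236-28120862), a large protein of the mucus gel that binds the IgG Fc part, was likewise highest in cluster 6. Its level inside cluster 6 was 712, 1757 and 1523 CPM in QCM and 771, 1559.7 and 1430.4 CPM in SCM, and outside it 105 to 292 CPM over the 6 samples. The ratio of Fcgbp to Muc2 counts inside cluster 6 was 3.20 to 5.32 in the 6 samples. In the other clusters with at least 20 UMIs of both genes its median was 4.72 to 8.11 over 5 samples, and cluster 6 lay below all of them in QCM replicates 2 and 3 and SCM replicate 3. Agr2 (ENSMUSG00000020581, chr12:35992907-36004087), the ER disulfide isomerase that mucin assembly needs, was less sharply placed, with 331, 543 and 361 CPM inside in QCM, 347, 369 and 396 CPM inside in SCM and 54.3 to 198 CPM outside. For both genes cluster 6 stood apart from the second cluster in order, at 1296 against 325 CPM (cluster 11) for Fcgbp and at 395 against 191 CPM (cluster 1) for Agr2.

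**Figure D2:**
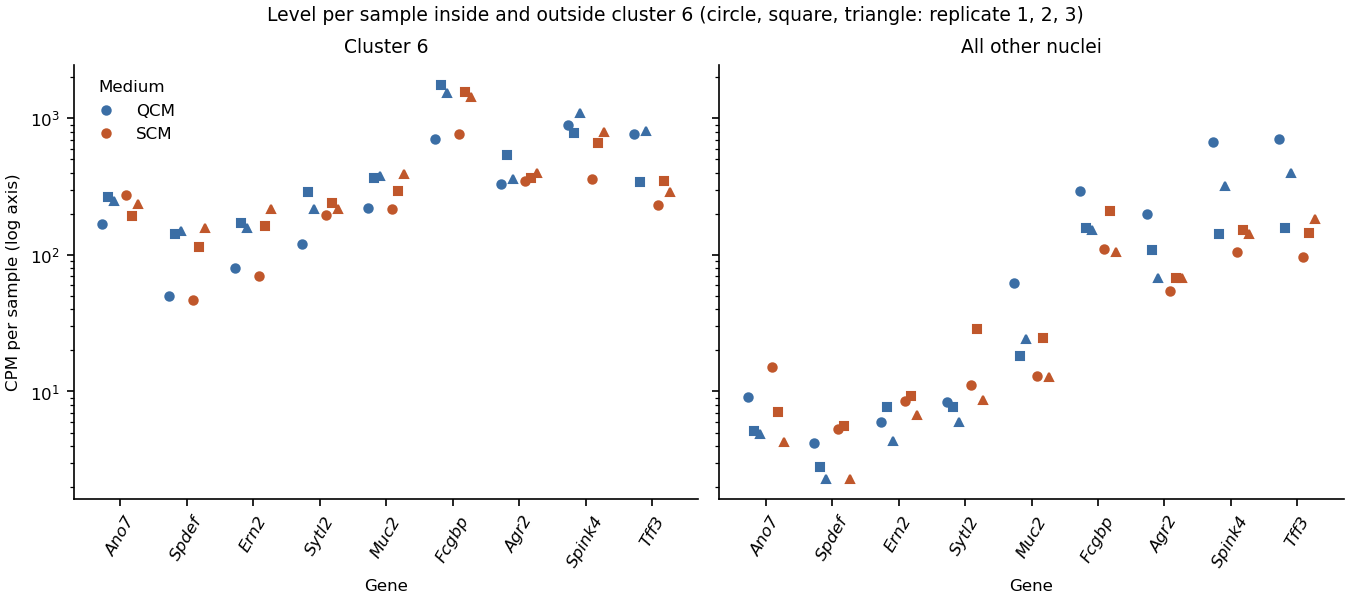
Level in CPM (log axis) of 9 of the genes in the nuclei of cluster 6 and in all other nuclei, 1 point per sample, QCM in blue and SCM in orange. Clca1 is left out because it was at 0 inside cluster 6 in 2 samples. The gap is wide for Ano7 (18.3- to 54.7-fold) and Spdef (8.81- to 69.6-fold) and small for Tff3 (1.08- to 2.42-fold).

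Tff3 and Spink4, the small secreted products, were found in all clusters. Tff3 (ENSMUSG00000024029, chr17:31125306-31129646) encodes a trefoil factor that is stored with mucin and aids repair of the epithelium. It was at 763, 341 and 809 CPM inside cluster 6 in QCM and at 234, 350.2 and 291 CPM in SCM. Outside it was at 704, 158 and 396 CPM in QCM and at 97.3, 145 and 184 CPM in SCM, so that in QCM replicate 1 the level inside and outside differed by only 1.08-fold. Cluster 1 led with 682 CPM, followed by cluster 4 with 521 CPM and cluster 6 with 514 CPM, and all 14 pairs of neighbours in the order overlapped. QCM replicate 1 gave 13650 of the 17723 Tff3 UMIs of cluster 1. With CPM averaged over samples, cluster 6 was first (465 CPM), cluster 1 second (420.1 CPM) and cluster 4 in place 7 (361 CPM).

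Spink4 (ENSMUSG00000028415, chr4:40920052-40931395) encodes a peptide with a Kazal-type serine protease inhibitor domain. Inside cluster 6 it was at 889, 776 and 1099.7 CPM in QCM and at 357, 662 and 794 CPM in SCM, and outside at 676, 143 and 320.4 CPM and at 105, 154 and 143 CPM. Cluster 6 was first at 815 CPM and cluster 1 second at 646 CPM, with overlapping ranges. With CPM averaged over samples cluster 6 was again first (763 CPM) and cluster 1 in place 3 (391 CPM).

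The proportion of the small products differed in the goblet-like cluster. In the other clusters with at least 20 UMIs of both genes, the ratio of Tff3 to Spink4 counts had a median of 1.03, 1.12 and 1.21 in QCM replicates 1 to 3 and of 1.06, 0.954 and 1.31 in SCM replicates 1 to 3. In cluster 6 the ratio was 0.859, 0.440 and 0.736 in QCM and 0.654, 0.529 and 0.366 in SCM. Cluster 6 lay below every other cluster counted in all 6 samples, though in QCM replicate 1 the lowest other cluster, at 0.893, was close to it. SCM replicate 1 had only 3 other clusters with enough counts.

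**Figure D3:**
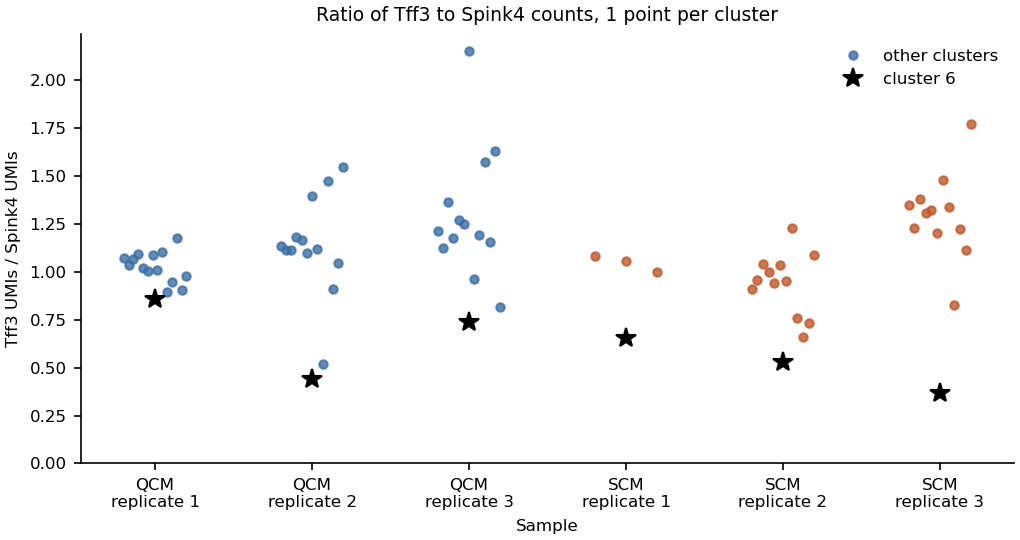
Ratio of Tff3 to Spink4 UMIs in each sample, with 1 point per deposited cluster that had at least 20 UMIs of both genes and cluster 6 drawn apart. In each of the 6 samples the point of cluster 6 (0.366 to 0.859) is the lowest.

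Paneth cell products were also found in all clusters. Itln1, an intelectin, stood at 970.2 CPM in cluster 1 and 729 CPM in cluster 6, and Defa24, a defensin, at 998 and 704 CPM. Over the 15 clusters, the correlation with Tff3 (Pearson r of log2(CPM + 1)) was 0.94 for Itln1, 0.93 for Defa24 and 0.86 for Lyz1, the lysozyme of Paneth granules. With Spdef the same 3 genes gave 0.17, 0.19 and 0.60. These sums too lean on QCM replicate 1. Without it Itln1 stood at 331 CPM in cluster 1 and 571.6 CPM in cluster 6 and Defa24 at 194 and 367 CPM, and Itln1, Defa24 and Lyz1 were each highest in cluster 6. The correlation of these 3 genes was then 0.82, 0.81 and 0.77 with Tff3 and 0.56, 0.65 and 0.82 with Spdef. The clusters share the same 6 libraries and differ in depth, and no test was made of these values.

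Clca1 (ENSMUSG00000028255, chr3:145003817-145032776), a secreted metalloprotease of mucus, was scarcely detected. It had 262 UMIs in all, of which 178 (67.9%) came from SCM replicate 2. In that sample 99 UMIs lay in 20 nuclei of cluster 7, up to 22 in a single nucleus, and 33 lay in 9 nuclei of cluster 6, up to 23 in a single nucleus. Cluster 7 was also its highest cluster in QCM replicates 2 and 3, at 10.1 and 9.21 CPM, with 7 UMIs in each. It was not in QCM replicate 1 or in SCM replicates 1 and 3. The place of Clca1 in any order of clusters therefore rests on few UMIs.

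The share of nuclei with a UMI gave a like picture. Nuclei were thinned to 1000 UMIs each to remove differences in depth, and the enteroendocrine-like clusters 9 and 10 and the tuft-like cluster 11, which should not make mucus, served as a reference, taken to show free RNA. Muc2 was seen in 27.6% of cluster 6 nuclei, in 2.82% of nuclei of clusters 9 and 10 and in 2.79% of cluster 11. Without thinning, 853 of 1755 nuclei of cluster 6 had a Muc2 UMI (48.6%, Wilson 95% interval 46.3 to 50.9%), against 10.2% in clusters 9 and 10 and 10.1% in cluster 11, at median depths of 2417, 2042 and 2080.5 UMIs. Such intervals cover counting error only.

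Spdef was seen in 13.8% of thinned cluster 6 nuclei and 0.58% of cluster 11, Ern2 in 18.2 and 1.60%, Ano7 in 22.8 and 3.39% and Sytl2 in 22.6 and 0.80%. In clusters 9 and 10 these 4 genes were seen in 0.60, 0.97, 0.85 and 1.84%. Over all nuclei outside cluster 6 they were seen in 0.20, 0.52, 0.38 and 0.67%. The reference clusters thus stood above the nuclei outside cluster 6 and are no plain level of free RNA for these genes. Fcgbp was seen in 58.8% of cluster 6 and 17.7% of cluster 11, Agr2 in 32.9 and 10.2% and Spink4 in 49.2 and 26.8%. For Tff3 the figures were 34.5% in cluster 6, 28.8% in cluster 11, 28.3% in clusters 9 and 10 and 36.3% in cluster 1. Of these 9 genes, Tff3 had the smallest gap between cluster 6 and the reference clusters.

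A thinned nucleus of cluster 6 carried on average 2.81 of the 10 genes, with sample means from 2.19 to 3.11. In the other clusters the mean was 0.36 to 1.08, highest in cluster 1, where sample means ran from 0.56 to 1.91. Counting Ano7, Spdef, Ern2 and Sytl2 alone, the mean was 0.774 in cluster 6 and 0.012 to 0.064 elsewhere.

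Within cluster 6, nuclei with Muc2 RNA also carried more of 8 of the other genes. The 853 nuclei with a Muc2 UMI were deeper (median 2947 UMIs) than the 902 without (2033.5 UMIs), so CPM were compared within each of 5 samples, without SCM replicate 1 and its 15 nuclei. The fold between nuclei with and without Muc2 was 1.64 to 3.43 for Spdef, 1.75 to 2.76 for Ano7, 1.69 to 2.81 for Spink4 and 1.52 to 2.68 for Sytl2. It was 1.37 to 2.60 for Ern2, 1.31 to 2.1 for Agr2, 1.45 to 1.80 for Tff3 and 1.13 to 1.64 for Fcgbp. For Clca1, which could be compared in 3 samples, it ran from 0 to 5.12. Paneth genes gave 0.75 to 2.53 for Lyz1, 1.20 to 1.96 for Itln1, 1.57 to 3.30 for Defa24 and 1.11 to 4.08 for Defa17.

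Pairs of the 10 genes correlated over the 15 clusters with r from 0.01 to 0.97 and a median of 0.65 over 45 pairs, among them Muc2 with Fcgbp (0.97), Spdef with Ano7 (0.97) and Tff3 with Spink4 (0.95). Summed counts were used for this and for the likeness below, and they lean on QCM replicate 1. Without that sample the r of Tff3 with Spdef was 0.41, against 0.22 with all samples. Of 12021 genes compared, the 5 most like Muc2 that were not on the list were Tpsg1 (0.93), Lyz1 (0.89), Gm1123 (0.89), Ang4 (0.88) and Sec11c (0.85). Tpsg1 encodes a tryptase, Ang4 an antimicrobial angiogenin of Paneth and goblet cells, and Sec11c a subunit of the signal peptidase. Gm44985 was among the 20 most alike genes of 6 of the 10, and Txndc5, Creb3l1, Sntb1 and Atp2a3 of 5 each. Txndc5 encodes an ER disulfide isomerase, Creb3l1 a transcription factor bound to the ER membrane and Atp2a3 an ER calcium pump. Cluster 6 held 63.6% of Sntb1 UMIs and 60.6% of Gm44985 UMIs.

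Between the media, Tff3, Spink4, Agr2, Muc2 and Fcgbp had lower estimates in SCM. Ano7, Spdef, Ern2 and Sytl2, the genes most confined to cluster 6, lay near or above 0, and no difference passed the test. The line between these groups is not sharp, since without QCM replicate 1 cluster 6 held 53.6% of Muc2 and 55.6% of Sytl2. Clca1, with 15.6% of its UMIs in cluster 6, had a higher estimate in SCM (1.95), which rests on SCM replicate 2. With replicates 2 and 3 alone Ano7 (-0.20) lay below Fcgbp (-0.085). With the ribosomal protein share in the fit the contrast between the 2 groups was smaller, and Tff3 and Spink4 lay no lower than Spdef. The log2 ratios were then -0.27 for Tff3, -0.28 for Spink4, -0.32 for Muc2, -0.42 for Fcgbp and -0.53 for Agr2. Those of the genes most confined to cluster 6 were -0.30 for Spdef, -0.10 for Ern2, -0.079 for Sytl2 and -0.049 for Ano7. The ribosomal protein share itself ran higher in QCM (5.21 to 14.9%) than in SCM (2.72 to 7.67%), with overlap. Its part therefore cannot be told apart from that of the medium in these samples. Counts were summed over all nuclei of each sample. In such sums fewer cells of a type and less RNA per cell cannot be told apart. None of the 10 genes passed an adjusted p of 0.05 in edgeR's quasi-likelihood test (0% of the 19046 genes tested passed), and DESeq2, which called 20 genes, called 0 of the 10. At an unadjusted p under 0.05, 4 of the 10 were called, against 4.55% of all genes, and all 4 (Tff3, Spink4, Agr2 and Muc2) were lower in SCM, against 3.08% of all genes. The adjusted p ran from 0.927 to 0.999 over the 10 genes in edgeR, and the smallest with DESeq2 was 0.216. The ranges of the media overlapped for all 10 genes, while 2.09% of all genes were lower in SCM without overlap.

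Among the genes lower in SCM, the estimates of Tff3 and Spink4 lay farthest from 0. Tff3 stood at 707, 171 and 417 CPM in QCM replicates 1 to 3 and at 107, 160.1 and 189 CPM in SCM replicates 1 to 3, or 432 ± 269 against 152 ± 41.3 CPM (mean ± SD, n = 3). QCM replicates 1 and 3 lay above all SCM samples and QCM replicate 2 among them. The edgeR estimate, as the log2 of SCM over QCM, was -1.74 ± 0.56 (SE). Leaving out QCM replicate 1 gave -0.99, and leaving out both replicates numbered 1 gave -0.81.

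Spink4 stood at 688, 186 and 359 CPM in QCM and at 124, 191 and 172 CPM in SCM (411 ± 255 against 162 ± 34.8 CPM). Again QCM replicate 2 was the sample that fell within the SCM range. Its log2 ratio was -1.58 ± 0.52, which became -0.79 when QCM replicate 1 was left out and -0.64 when both replicates numbered 1 were. The order of the ribosomal protein share was close to that of Tff3 and Spink4, with QCM replicates 1 and 3 highest in each. The values with that share in the fit are given above, and its part in the result was not tested. Summed Paneth markers moved likewise, at 527 to 2646 CPM in QCM and 346 to 601 CPM in SCM, with no marker of the list at 0, and their part in the result was not tested.

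Agr2 stood at 206, 138 and 82.5 CPM in QCM and at 75.9, 90.6 and 83.1 CPM in SCM, and 2 QCM samples lay above all SCM samples. Its log2 ratio was -0.98 ± 0.37, which became -0.43 without QCM replicate 1 and -0.37 without both replicates numbered 1. Muc2 stood at 71.4, 42.0 and 42.0 CPM in QCM and at 28.0, 44.8 and 29.9 CPM in SCM, and only QCM replicate 1 lay above the SCM range. Its log2 ratio of -0.80 ± 0.34 became -0.33 when QCM replicate 1 was left out, -0.22 when both replicates numbered 1 were. Without the nuclei of SCM replicate 1 whose barcodes were also found in QCM replicate 1, the estimates were -1.76 for Tff3, -1.65 for Spink4, -1.10 for Agr2 and -0.88 for Muc2. No nuclei of QCM replicate 1 were removed for these estimates. Fcgbp, at 317, 265 and 220.3 CPM in QCM and 159.9, 309.6 and 164 CPM in SCM, had a log2 ratio of -0.53 ± 0.32, with SCM replicate 2 near the top of the QCM range. For Fcgbp the estimate was -0.24 when QCM replicate 1 was left out and -0.085 when both replicates numbered 1 were.

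**Figure D4:**
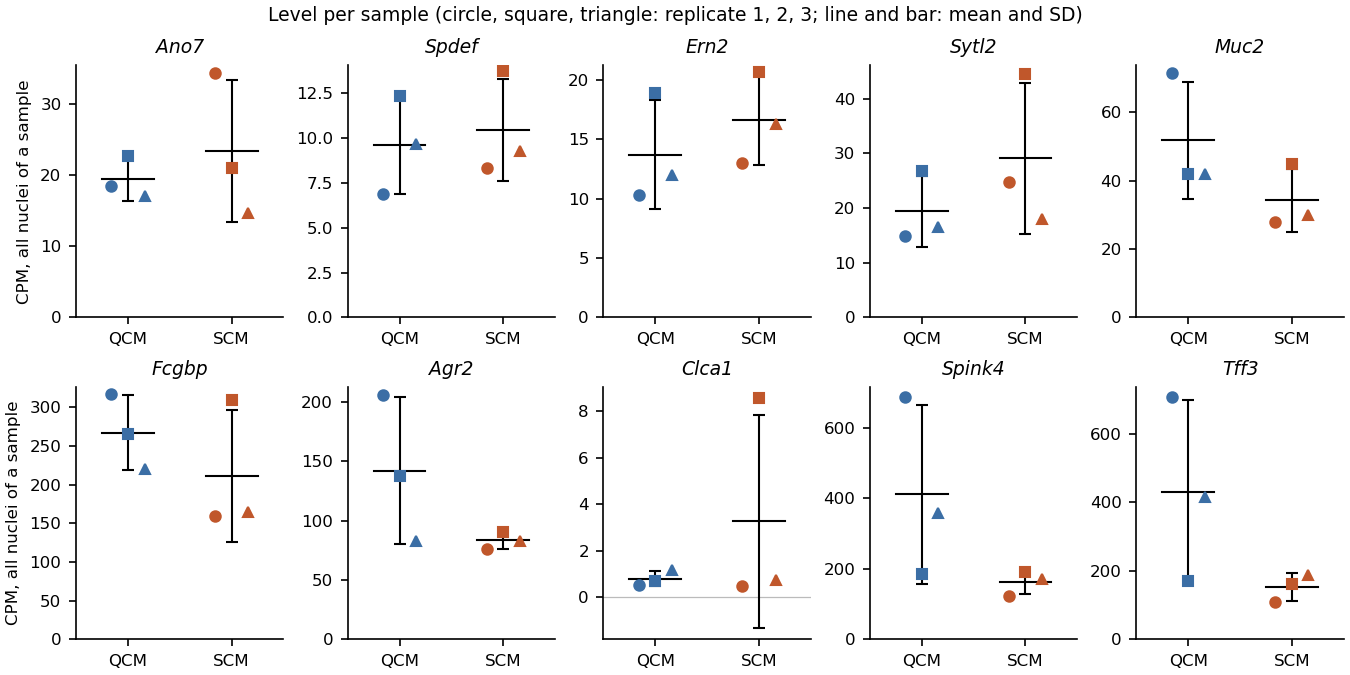
Level of each of the 10 genes in each sample in CPM over all nuclei, with 1 point per sample, QCM in blue and SCM in orange, and the mean ± SD of 3 samples beside them. The points of the media overlap in all 10 panels, and QCM replicate 1 is the highest for Muc2, Tff3, Spink4, Fcgbp and Agr2.

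The genes most confined to cluster 6 lay close to no difference. Spdef stood at 6.87, 12.3 and 9.64 CPM in QCM and at 8.35, 13.7 and 9.29 CPM in SCM, with a log2 ratio of -0.00088 ± 0.27. Ern2 was at 10.3, 18.9 and 11.9 CPM against 13.0, 20.6 and 16.3 CPM (0.16 ± 0.26). Ano7 was at 18.4, 22.7 and 17.0 CPM against 34.4, 21.0 and 14.7 CPM (0.08 ± 0.30), with the highest value in SCM replicate 1. In none of the 3 did the samples separate by medium, and leaving out single samples turned the sign of each.

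Sytl2 was at 14.9, 26.7 and 16.5 CPM in QCM and at 24.8, 44.5 and 18.0 CPM in SCM (log2 ratio 0.44 ± 0.34). Outside cluster 6 its samples did not overlap, with 8.41, 7.69 and 5.97 CPM in QCM and 11.1, 28.8 and 8.60 CPM in SCM. It was the only 1 of the 10 genes of which this held, while 5.18% of all genes were higher in SCM outside cluster 6 without overlap. Clca1 was at 0.536, 0.700 and 1.15 CPM in QCM and at 0.491, 8.56 and 0.746 CPM in SCM, and its log2 ratio of 1.95 ± 0.97 became -0.39 without SCM replicate 2.

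The median log2 ratio was -0.27 over the 10 genes and -0.01 over all genes tested, and 6 of the 10 estimates were below 0. The median of the 10 was -0.64 without SCM replicate 2, -0.14 without both replicates numbered 1, -0.10 when scaled by library size alone and -0.07 at an equal mix of clusters. Over 9 genes without Clca1, the share of a gene's UMIs in cluster 6 correlated with its log2 ratio at r = 0.92 (Spearman 0.83), and with Clca1 included at 0.36 (Spearman 0.54). Over the 9 genes it was 0.85 (Spearman 0.87) with both taken without QCM replicate 1, and with the mean share over samples set against the log2 ratio that has the ribosomal protein share in the fit it was 0.61 (Spearman 0.47). With Clca1 included these became 0.09 (Spearman 0.47) and -0.18 (Spearman 0.07), so the relation rests on leaving out Clca1. The genes come from the same 6 libraries, so these values are a description.

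**Figure D5:**
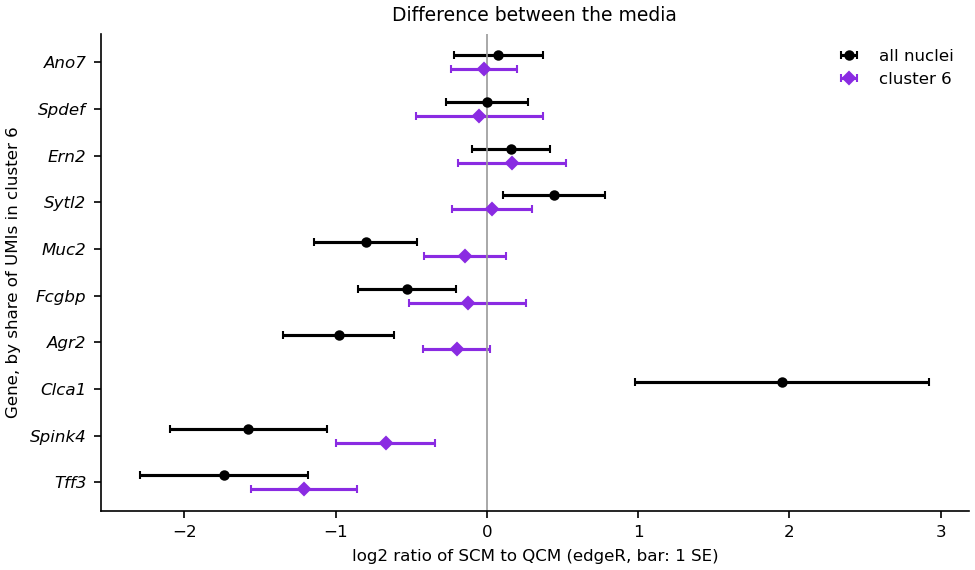
Log2 ratio of SCM to QCM with its SE from edgeR for the counts of all nuclei and for the counts of cluster 6, genes ordered by the share of their UMIs in cluster 6. Over all nuclei Tff3 (-1.74) and Spink4 (-1.58) lie farthest below 0, and in cluster 6 only Tff3 (-1.21) lies more than 1 below 0. Clca1 has no estimate in cluster 6.

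Inside the goblet-like cluster the differences were smaller for most genes. Of the 9 genes tested there, 0 passed an adjusted p of 0.05 in edgeR (0% of 11136 genes tested) and 1, Tff3, had an unadjusted p under 0.05 (5.3% of genes tested). The log2 ratio of Tff3 was -1.21 ± 0.35 with an edgeR adjusted p of 0.892, and that of Spink4 was -0.67 ± 0.33. With no filter on low counts the adjusted p of Tff3 was 0.0013 in edgeR, in a fit that called 1.06% of 25081 genes. Without both replicates numbered 1, Tff3 was at -0.90 and Spink4 at -0.40, and without SCM replicate 1 alone Spink4 was at -0.41. Muc2 (-0.14 ± 0.27), Fcgbp (-0.13 ± 0.39), Agr2 (-0.20 ± 0.22), Spdef (-0.05 ± 0.42), Ern2 (0.17 ± 0.36), Ano7 (-0.02 ± 0.22) and Sytl2 (0.03 ± 0.26) all lay within 1 SE of 0. The median of the 9 was -0.13, against 0.01 for all genes tested in the cluster. SCM replicate 1 entered this fit with 15 nuclei, 7 of them with barcodes also seen in QCM replicate 1.

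The lower estimates of Tff3, Spink4, Agr2, Muc2 and Fcgbp ran through most other clusters. In 13 clusters that could be fitted, 88 pairs of gene and cluster were tested, and 0 passed an adjusted p of 0.05 in edgeR (0% of all 130109 pairs of gene and cluster). The smallest edgeR adjusted p was 0.339. At an unadjusted p under 0.05 and lower in SCM were 36 of the 88 pairs, against 4.55% of all pairs, and DESeq2 called 2 pairs, Tff3 and Spink4 in cluster 7, among 95 pairs of all genes. With no filter on low counts, edgeR called 30 of 128 pairs, 11 of them of Tff3 and 8 of Spink4, against 0.984% (3135 of 318724) of the pairs of all genes. Without QCM replicate 1, and without both replicates numbered 1, edgeR called 0 pairs after adjustment. Lower in SCM with an unadjusted p under 0.05 were then 13 of 87 pairs, against 1.17% of all pairs, and 7 of 87, against 1.38%. These clusters share the same 6 samples and are not independent of each other.

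Tff3 was lower in SCM in 13 of 13 clusters by the sign of its estimate (-2.11 to -0.84), and so were Spink4 (-1.96 to -0.57) and Agr2 (-1.52 to -0.20). Muc2 was below 0 in 11 of 12 clusters (-1.92 to 0.22) and Fcgbp in 10 of 13 (-1.19 to 0.09). Sytl2 was above 0 in all 7 clusters tested (0.03 to 0.67). The lower estimates lean on QCM replicate 1. In 10 of 13 clusters QCM replicate 2 was not above the highest SCM sample in Tff3 CPM, nor in 10 of 13 in Spink4 CPM. For Muc2 this held in 11 of 13 clusters and for Fcgbp in 8 of 13, but for Agr2 in only 1 of 13. Without both replicates numbered 1, Tff3 was below 0 in 13 of 13 clusters (-1.60 to -0.086), Spink4 in 12 of 13 (-1.08 to 0.31), Agr2 in 12 of 13 (-0.67 to 0.45), Muc2 in 8 of 12 (-0.88 to 0.35) and Fcgbp in 9 of 13 (-0.55 to 0.73), and Sytl2 was above 0 in 6 of 7. The ribosomal protein share was put in the fit over all nuclei and not in those within clusters. With all samples, Ern2 was below 0 in 3 of 6 clusters, Ano7 in 5 of 7 and Spdef in 2 of 3, and Clca1 could be tested only in cluster 7 (1.23). When every sample was given the same mix of clusters, the log2 ratio of mean CPM was -1.44 for Tff3, -1.25 for Spink4, -0.74 for Agr2 and -0.46 for Muc2, against -1.51, -1.34, -0.77 and -0.60 with the mix as measured.

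The share of nuclei with Muc2 was examined apart from depth. After thinning to 1000 UMIs it was 7.51, 3.68 and 3.14% in QCM replicates 1 to 3 and 2.24, 4.02 and 2.17% in SCM replicates 1 to 3, so that the media overlapped. Left out as shallower were 0, 490 and 1876 nuclei of the QCM replicates and 106, 228 and 479 of the SCM replicates. The means were 4.78 ± 2.38% and 2.81 ± 1.05% (SD, n = 3), a difference of -1.97 percentage points (two-sided exact permutation p = 0.3, where 3 against 3 samples cannot give less than 0.1). Without thinning the shares were 46.2, 7.49 and 5.45% in QCM and 8.60, 9.63 and 4.08% in SCM (exact permutation p = 0.7). Inside cluster 6 the thinned share was 21.9, 31.0 and 23.8% in QCM and 25.4, 30.1 and 27.6% in SCM.

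Further genes of the mucus pathway were taken from 6 lists by textbook role, and neither edgeR nor DESeq2 called a gene of any list at an adjusted p of 0.05, while 4.55% of all genes had an unadjusted p under 0.05. Of 16 genes for ER folding and the unfolded protein response, 13 were below 0 (median log2 ratio -0.40, 1 at an unadjusted p under 0.05). The 3 most abundant were the chaperones Hsp90b1 (-0.54 ± 0.31), Hspa5 (-0.55 ± 0.33) and Calr (-0.95 ± 0.33). They were no higher in cluster 6 than in other nuclei, with folds of 0.991, 1.00 and 0.959. Of 16 tested genes for other secreted and granule proteins, 12 were below 0 (median -0.36) and 3 had an unadjusted p under 0.05, all lower in SCM. Among them Slc12a8, a solute carrier, was 7.70-fold higher in cluster 6 and had a log2 ratio of 0.44 ± 0.23, while Lypd8, an antibacterial protein of the colon surface, had -0.78 ± 0.36 and Nlrp6, an innate immune sensor, -0.46 ± 0.29.

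Of 20 enzymes of mucin O-glycosylation, 6 were below 0 (median 0.12), and 2 had an unadjusted p under 0.05, both higher in SCM. Galnt7, which adds the first sugar of new chains to mucin peptides that already carry some, was 2.26-fold higher in cluster 6, with a log2 ratio of 0.23 ± 0.25. B4galnt2 (0.08 ± 0.43) and St3gal6 (0.13 ± 0.27) are the other abundant members. Of 9 transcription factors of the secretory lineage, 7 were below 0 (median -0.12, 0 at an unadjusted p under 0.05), with Hes6 at -0.54 ± 0.27, Foxa3 at 0.07 ± 0.21 and Foxa1 at -0.06 ± 0.21. Foxa3 was 2.70-fold higher in cluster 6 and Hes6 was highest in the enteroendocrine-like cluster 9.

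Of 6 other mucins tested, 2 were below 0 (median 0.09, 0 at an unadjusted p under 0.05), among them the membrane mucins Muc13 (0.01 ± 0.20), Muc4 (0.21 ± 0.31) and Muc3 (-0.36 ± 0.56). Of 10 genes for granule trafficking, 5 were below 0 (median 0.02), and 2 had an unadjusted p under 0.05, both higher in SCM. Rab27b, the small GTPase of the family that Sytl2 binds, was at 38.8 to 56.4 CPM in QCM and at 64.0 to 119 CPM in SCM. Its log2 ratio was 0.68 ± 0.27 (edgeR adjusted p 0.927), and it was 3.52-fold higher in cluster 6. How many of all genes were higher in SCM without overlap over all nuclei is not given here. Unc13b, a priming factor, had 0.24 ± 0.22 and Vamp8, a granule SNARE, -0.93 ± 0.44.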

How the data were processed

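Nuclei of 6 organoid samples (3 QCM, 3 SCM) were sequenced as 3′ droplet libraries. The deposited matrices give, for every nucleus, UMI counts of each gene, made by the authors with Cell Ranger (version 2.1.1 in the submitters' processing notes) on the mm10 genome, after removal of nuclei with outlying depth or mitochondrial share. Whether intronic reads were counted is not given in the sources used here. The deposited log values, which the authors had normalized, were not used.

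The members and all lists were chosen with earlier results of these data known. Ensembl identifiers were matched to symbols for 31244 of 31319 genes (GRCm38). All 38154 nuclei were used with the deposited clusters, and no doublets were removed beyond what the authors did. Summed counts of whole samples, or of clusters with at least 10 nuclei in a sample, were tested with edgeR 4.0.16 in R 4.3.3 (quasi-likelihood, TMM, filterByExpr at its minimum count of 10, Benjamini-Hochberg over all genes tested, threshold 0.05), after a check on simulated data. CPM was the gene's sum over the sum of all genes. DESeq2 1.42.0 and voom with limma 3.58.1, other scalings, no filter, a replicate block, left-out samples and the ribosomal protein share as covariate were alternatives. The fits without shared barcodes (removed from SCM replicate 1 only) and with replicates 2 and 3 alone were chosen after seeing the data. So were the shares of UMIs and the Paneth values without QCM replicate 1. Depth was 4071926 to 41035733 UMIs per sample, and SCM replicate 1 with 430 nuclei gave the least precise values. The labels do not say whether samples came from separate mice, so p-values measure only the spread between these samples.

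Named were all 10 members, the 3 most abundant genes of each list (and any called gene, of which there was none), the 5 genes most like Muc2 over clusters and 5 like the largest number of members, with at least 50 UMIs and a mean CPM of 5, and 4 Paneth genes. For overlap with other genes, none of the 10 overlaps a gene measured here.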

Additional observations from a re-analysis of the deposited data

How the results depend on the processing

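None of the 10 genes was called over all nuclei under any of the 15 alternatives that give a count of calls (an equal mix of clusters gives none), and no gene of the 6 lists was called in 15 of 15. Of 160 alternative log2 ratios over all nuclei, 140 had the sign and side of the threshold given above and 20 turned sign, all of Spdef, Ano7, Ern2, Sytl2 or Clca1. Spdef was 0.0065 with DESeq2, 0.13 with voom, 0.14 by library size, 0.0012 without a filter, 0.15 at an equal mix and 0.021 with replicates 2 and 3 alone. Ano7 was -0.0038 with voom, -0.049 with the ribosomal covariate, -0.13 without shared barcodes and -0.20 with replicates 2 and 3 alone, and the ribosomal covariate gave -0.10 for Ern2 and -0.079 for Sytl2. Leaving out single samples gave -0.24 to 0.14 for Spdef, -0.27 to 0.29 for Ano7, -0.013 to 0.37 for Ern2, -0.0057 to 0.68 for Sytl2, -0.39 to 2.43 for Clca1 and -0.64 to -0.17 for the median. In cluster 6, 111 of 135 were unchanged in sign and side, and 1, Tff3 without the filter (-1.23, edgeR adjusted p 0.0013), was called, with 1.06% of all genes in that fit. There, with at least 20 nuclei or without shared barcodes, Muc2 was 0.032, Fcgbp 0.12 and Spdef 0.22. Spdef was 0.10 with voom, Ano7 0.041 by library size and Sytl2 -0.16 with replicates 2 and 3 alone, and single samples left out gave -0.42 to 0.032 for Muc2, -0.42 to 0.12 for Fcgbp, -0.45 to 0.22 for Spdef, -0.22 to 0.44 for Ern2, -0.18 to 0.11 for Ano7 and -0.23 to 0.29 for Sytl2. Within clusters the calls went from 0 to 2 with DESeq2 (95 pairs of all genes), to 30 of 128 pairs without a filter (29 lower in SCM, 0.984% of pairs of all genes), and lay between 0 and 1 without single samples (1 of Tff3 without QCM replicate 2, among 32 of all genes). The causes were not tested. Deviations of same-numbered samples correlated at 0.29, 0.61 and 0.08, and those of samples with other numbers at -0.57 to 0.16. For each QCM sample the same-numbered SCM sample gave the highest value. The labels do not say what a number shares, so the numbers were not taken as pairs in the main fit. With a replicate block 0 of the 10 genes were called over all nuclei and 2 pairs within clusters, Tff3 and Spink4 in cluster 9, among 248 pairs of all genes. The Muc2 share kept its sign in 12 of 12 alternatives (-0.60 to -2.79 points without single samples, -0.32 with replicates 2 and 3 alone), but for nuclei with at least 2 UMIs of Muc2 the difference was -0.0053 points (exact permutation p = 1). Depth limits Clca1 and all values of SCM replicate 1.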
